A study of Homo sapiens with 12 samples.

Results

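The genes of the hypoxia response and of glycolysis were followed in 3 human multiple myeloma lines that had been kept with or without stromal cells. The set holds 39 named genes, which were chosen with earlier results of these data known. Every probe set annotated to one of them was taken, without regard to its values. Of these genes 38 were measured, by 87 of the 54675 probe sets of the array, 3 of which are labelling controls for GAPDH. SLC16A3, the lactate exporter, was not analysed here. All 38 passed the filter on low values, among 15052 genes that did.

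Cells of MM.1S, MM.1R and INA-6 sorted after 24 hours of coculture with HS-5, a stromal line from human marrow, were compared with the same 3 lines cultured alone. Dexamethasone kills MM.1S but not its derivative MM.1R, and INA-6 is known to need interleukin 6. Cells of all groups carried green fluorescent protein stably, and after coculture the GFP-positive cells had been separated from unlabelled HS-5 cells by cell sorting. Each of the 6 groups had 2 Affymetrix U133 Plus 2.0 arrays, 12 in all, which the series text describes as technical replicates.

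When oxygen is short, the alpha subunits of the hypoxia-inducible factor (HIF) escape hydroxylation by the EGLN enzymes, pair with ARNT and bind the short DNA word ACGTG at their target genes. The targets include nearly every enzyme that takes glucose to lactate, the glucose transporters, receptors for the removal of mitochondria, secreted factors such as VEGFA, and the EGLN genes, which close a feedback loop. HIF alpha subunits are controlled mainly at the protein level, so their mRNA says little of their activity. Myeloma cells grow in bone marrow, a tissue known for low oxygen, and their glycolysis has been tied to growth and to drug resistance.

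The promoters below show where the HIF core word stands in members picked as examples, BHLHE40, BNIP3, ANKRD37 and the glycolytic genes PGK1 and LDHA. Only windows that hold the word are shown, and of the 2 windows of LDHA 1 does. Each is the 250 bases before a RefSeq gene start on GRCh38.p14, read in the direction of the gene, and capitals mark ACGTG or its reverse complement CACGT. The pair can overlap as CACGTG, which also is the E-box word of other factors.
BHLHE40 (chr3:4979187-4979436, plus strand): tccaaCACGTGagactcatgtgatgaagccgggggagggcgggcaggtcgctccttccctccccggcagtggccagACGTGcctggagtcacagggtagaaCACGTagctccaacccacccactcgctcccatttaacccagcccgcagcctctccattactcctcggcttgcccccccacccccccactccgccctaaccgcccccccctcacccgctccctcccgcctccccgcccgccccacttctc
BNIP3 (chr10:131981924-131982173, minus strand): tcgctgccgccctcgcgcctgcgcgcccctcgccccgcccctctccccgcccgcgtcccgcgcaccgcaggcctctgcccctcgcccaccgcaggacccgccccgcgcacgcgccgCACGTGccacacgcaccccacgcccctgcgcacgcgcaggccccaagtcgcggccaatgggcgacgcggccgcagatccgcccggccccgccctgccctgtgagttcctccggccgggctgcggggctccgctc
ANKRD37 (chr4:185396591-185396840, plus strand): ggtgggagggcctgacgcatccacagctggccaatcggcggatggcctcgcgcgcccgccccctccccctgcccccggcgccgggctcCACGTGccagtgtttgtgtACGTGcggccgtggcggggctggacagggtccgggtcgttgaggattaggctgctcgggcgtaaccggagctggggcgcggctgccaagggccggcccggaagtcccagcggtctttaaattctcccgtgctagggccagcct
PGK1 (chrX:78103998-78104247, plus strand): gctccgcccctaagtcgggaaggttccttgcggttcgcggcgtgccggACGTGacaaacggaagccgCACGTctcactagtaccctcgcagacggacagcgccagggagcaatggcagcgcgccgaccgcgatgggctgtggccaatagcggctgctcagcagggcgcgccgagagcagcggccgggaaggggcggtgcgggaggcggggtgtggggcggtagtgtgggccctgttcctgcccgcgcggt
LDHA (chr11:18394313-18394562, plus strand): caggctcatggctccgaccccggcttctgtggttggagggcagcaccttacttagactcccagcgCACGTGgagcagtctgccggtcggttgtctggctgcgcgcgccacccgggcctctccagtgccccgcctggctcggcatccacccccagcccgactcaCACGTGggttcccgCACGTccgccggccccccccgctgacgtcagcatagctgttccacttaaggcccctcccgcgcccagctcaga
The first 3 windows hold a CACGTG, that of LDHA holds it at more than 1 place, and that of PGK1 holds the word apart on each strand. Of the 38 measured members 33 had a promoter entry, and 18 (54.5%) held the word on either strand in at least 1 window. Among all tested genes with an entry the share was 27.4%. Counted by window, the shares were 41.2% of 51 for members, 21.3% of 17273 for all tested genes, and 18.5% of all 35116 windows of the table. The word stood before 8 of 14 members that passed the common test described next and before 10 of 19 that did not. HK1, PKM, PFKFB4, STC2, P4HA2 and KDM3A passed and had an entry, but no window with the word. NDRG1, SLC2A3, STC1, BNIP3L and VEGFA are without an entry. A match is a short run of letters and not a measured binding site.

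Several measures of the arrays moved with coculture. The summed intensity of 22 tested markers of stromal cells was 15319.8 and 15181 after coculture against 2627 and 2710.0 alone in MM.1S, 27618 and 26815 after coculture against 3863 and 3894 alone in MM.1R, and 13396 and 13518 after coculture against 4079.5 and 5455 alone in INA-6. Of these markers 11 rose and 0 fell in the common test, and COL6A2, COL6A3 and PDGFRB were below the array median on all 6 arrays of cells alone, PDGFRB also on 3 after coculture. At the other end 7 of the 22, such as COL1A1, SPARC and THY1, were above the median on all 12 arrays. Of 11 myeloma and plasma cell markers 10 were above the median of every array, among them SDC1, IRF4 and TNFRSF17, and 0 passed the common test. Tested by line, 8 rose and 0 fell in MM.1S, 5 and 0 in MM.1R, and 3 and 5 in INA-6. How much HS-5 RNA the sorted cells held, and its part in any result, was not tested. In such bulk samples fewer cells of a type and less RNA per cell cannot be told apart either. The bacterial labelling control BioB, a spike-in, read lower after coculture in each line, by its middle probe set at 465 and 413 after coculture against 2213 and 2018 alone in MM.1S, 403 and 568 after coculture against 661 and 727 alone in MM.1R, and 948 and 992 after coculture against 4235 and 3623 alone in INA-6. Array medians lay between 19.8 and 24.1. The 75th percentile of an array was higher after coculture, at 116.4 to 128.5 against 69.9 to 107.5 alone. In INA-6 it was 116.4 and 120.9 after coculture against 73.6 and 69.9 alone. The part of this shift in the changes below was not tested. Between the arrays of INA-6 cultured alone 11 of the 38 members differed at least 2-fold, against 0 to 2 in the other groups. Of all genes 39.3% did so in INA-6 alone, against 3.05% to 13.03% in the other groups. The wide gaps in INA-6 alone were thus not particular to the members. Its duplicates correlated at 0.839, against 0.946 to 0.986 in the other groups.

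Most hypoxia and glycolysis genes read higher in the myeloma lines after coculture, among them STC1, ANGPTL4, STC2, BHLHE40 and PFKFB4. A rise common to the lines passed the test for 18 of the 38 members, a fall for 0, and 20 did not pass, where 3.28% of all genes rose and 0.106% fell. The median change was 1.98 over the members, beside 0.27 over all genes. Changes are differences in log2(intensity + 5), coculture minus alone. Of the members 35 were higher in every line, by any size, as were 34.3% of all genes. All 6 arrays after coculture exceeded all 6 arrays alone in 24 members and lay below them in 0, beside 13.4% and 1.92% of all genes. At least a 2-fold rise in each line was seen in 22 members (6.47% of all genes) and a 2-fold fall in 0 (0.492% of all genes). By role the median change was 3.31 for the secreted targets, 3.37 for the mitophagy receptors, 2.70 for the other HIF targets and 1.08 for the glycolytic enzymes.

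The common test was limma's moderated test on the duplicates' means with the line as block, two-sided, adjusted by Benjamini-Hochberg over all genes, with a threshold of 0.05. Its replicates are the 3 lines, of which MM.1R was derived from MM.1S. After quantile normalization of the arrays 9 members passed and without INA-6 30, and the 9 that passed under every alternative run were STC1, ANGPTL4, BHLHE40, PFKFB4, NDRG1, HK1, BNIP3L, P4HA2 and P4HA1.

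**Figure D1:**
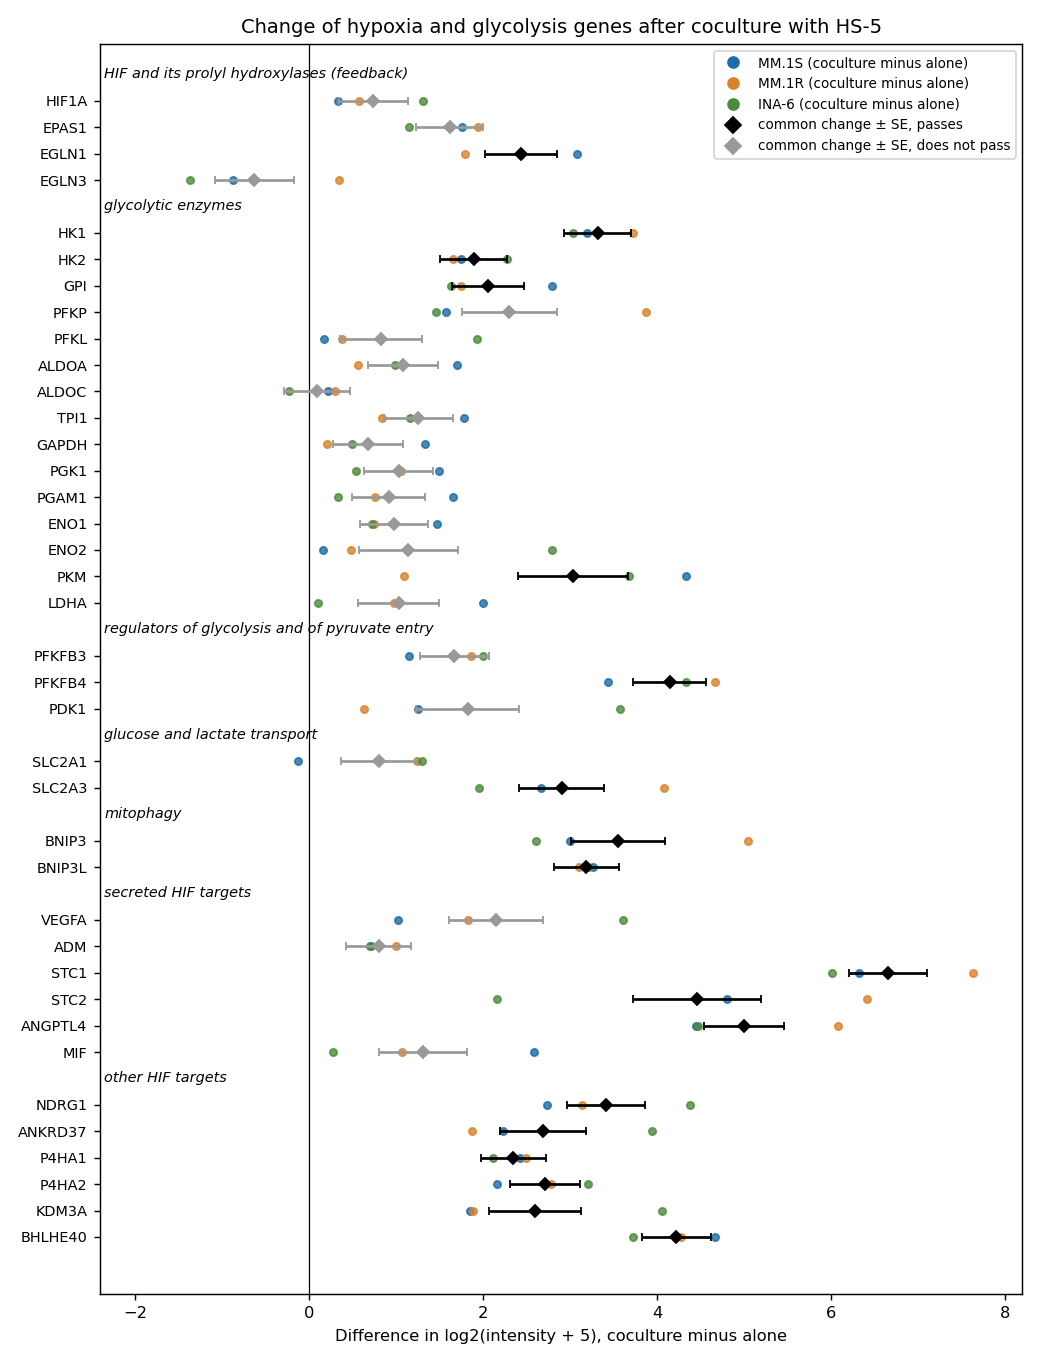
Change after coculture with HS-5 for 38 genes, by role, as the difference in log2(intensity + 5), coculture minus alone. Coloured points are the 3 lines, and diamonds with bars the common change ± SE, black where it passed the test. The 18 black diamonds lie between 1.89 and 6.65. EGLN3, which read below the array median on every array after coculture, is the only gene with a common change below 0.

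Of the HIF subunits and their hydroxylases, 1 of 4 rose. HIF1A, the oxygen-regulated subunit most cells use, read 786 and 675 after coculture against 586 and 568 alone in MM.1S, 926 and 985 against 595 and 686 in MM.1R, and 1129.7 and 1022 against 719 and 257 in INA-6. Arrays of INA-6 alone and MM.1R alone reached above the lowest array after coculture, in MM.1S, and the common change of 0.74 ± 0.40 (SE) did not pass (adjusted p = 0.306). EPAS1, the second alpha subunit, read 345 and 305 after coculture against 91.3 and 93.2 alone in MM.1S, 616 and 594 against 161 and 147 in MM.1R, and 301 and 312 against 135 and 137 in INA-6. All arrays after coculture were higher, but the change of 1.62 ± 0.39 did not pass either (adjusted p = 0.0714). EGLN1, the main HIF prolyl hydroxylase, read 712 and 646 after coculture against 67.1 and 84.8 alone in MM.1S, 639.6 and 661 against 183 and 185 in MM.1R, and 621 and 590.0 against 249.5 and 44.6 in INA-6. The groups did not overlap and EGLN1 rose by 2.44 ± 0.42 (adjusted p = 0.0286), though its other tested probe sets stood at 0.43 and 0.01. With the mean of its probe sets the change was 0.96 and did not pass (adjusted p = 0.169), nor did it without replicate 2 of INA-6 alone (0.0559). EGLN3, the hydroxylase most strongly induced by hypoxia in many tissues, spanned 8.48 to 18.1 after coculture, against 6.30 to 89.6 alone, with a common change of -0.63 ± 0.45 (adjusted p = 0.424). It was below the array median on every array after coculture and on 4 of the 6 alone. Such low values cannot show whether EGLN3 changed. Its other probe set, too low to be tested, stood at 0.27.

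Among the enzymes from glucose to lactate 4 of 15 rose, HK1, HK2, GPI and PKM, and 15 of 15 had a common change above 0. Hexokinase traps glucose in the cell. HK1 read 429 and 412 after coculture against 40.6 and 42.0 alone in MM.1S, 792 and 786 against 57.0 and 53.4 in MM.1R, and 743 and 727 against 126 and 57.1 in INA-6. HK1 thus read several times higher after coculture on every array, a rise of 3.32 ± 0.38 (adjusted p = 0.00621). HK2, the hexokinase that hypoxia induces, read 1253 and 1283 after coculture against 345 and 405 alone in MM.1S, 1706 and 1492 against 527 and 483 in MM.1R, and 1378 and 1271 against 312 and 232 in INA-6. HK2 rose by 1.89 ± 0.38 (adjusted p = 0.0460) with no overlap between the groups. Its other tested probe set stood at -0.24, and HK2 did not pass with the mean of its probe sets (adjusted p = 0.195).

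GPI, which turns glucose phosphate into fructose phosphate, read 3283 and 3207 after coculture against 455 and 472 alone in MM.1S, 3115 and 3071 against 885 and 955 in MM.1R, and 2499.8 and 2476 against 967 and 659.9 in INA-6. It rose by 2.06 ± 0.41 (adjusted p = 0.0460) with no overlap, and lost the call without either array of INA-6 alone (adjusted p = 0.0770 and 0.0512). PKM, the pyruvate kinase that yields ATP and pyruvate, read 1141 and 1084 after coculture against 56.4 and 45.3 alone in MM.1S, 773 and 746 against 346 and 359.6 in MM.1R, and 1129.8 and 1116 against 77.0 and 90.3 in INA-6. PKM rose by 3.03 ± 0.63 (adjusted p = 0.0491), at 4.33 in MM.1S, 1.09 in MM.1R and 3.67 in INA-6. Its other probe set read 253 and 224 after coculture against 301 and 246 alone in MM.1S, 243 and 222 against 238 and 259.6 in MM.1R, and 620.1 and 586 against 32.2 and 34.9 in INA-6. That probe set read higher after coculture in INA-6 but not in MM.1S, and with the mean of both PKM did not pass (adjusted p = 0.10).

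The other 11 glycolytic enzymes did not pass. Phosphofructokinase commits sugar to glycolysis. PFKP, the platelet isoform, read 109 and 117 after coculture against 42.5 and 28.0 alone in MM.1S, 338 and 271 against 12.9 and 19.5 in MM.1R, and 1366 and 1409.7 against 505 and 501 in INA-6. It was higher after coculture in each line, by 1.58 in MM.1S, 3.88 in MM.1R and 1.46 in INA-6, and the common change of 2.30 ± 0.55 did not pass (adjusted p = 0.0689). PFKL, the liver isoform, read 1202 and 1206 after coculture against 1139 and 993 alone in MM.1S, 1298 and 1397 against 1020.2 and 1049 in MM.1R, and 757 and 781 against 267 and 146 in INA-6. Only INA-6 showed a gap of more than 2-fold, and the common change was 0.83 ± 0.47 (adjusted p = 0.322).

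The middle of the pathway splits the sugar and makes the first ATP. ALDOA, the main aldolase, read 5244 and 4950.1 after coculture against 1609 and 1526 alone in MM.1S, 5436 and 5155 against 3554 and 3620.4 in MM.1R, and 4781 and 4853 against 2515 and 2337 in INA-6. PGK1, the first enzyme to yield ATP, read 3639 and 3574 after coculture against 1244 and 1308 alone in MM.1S, 4054 and 4408 against 2032 and 2028 in MM.1R, and 4179.6 and 4196 against 3048 and 2716 in INA-6. PGAM1, the phosphoglycerate mutase, read 4421 and 4271 after coculture against 1397 and 1348 alone in MM.1S, 4593 and 4759 against 2723 and 2789 in MM.1R, and 2817 and 3336 against 2436 and 2411 in INA-6. In all 3 genes every array after coculture exceeded every array alone, by common changes of 1.08 ± 0.41, 1.03 ± 0.39 and 0.92 ± 0.42, and none passed (adjusted p = 0.179, 0.186 and 0.245). TPI1, the triose isomerase, spanned 2727 to 5293 after coculture, against 969 to 2911 alone (1.26 ± 0.40, adjusted p = 0.130). ENO1, the main enolase, spanned 4410.0 to 5679.8 after coculture, against 1527 to 3479 alone (0.98 ± 0.39, adjusted p = 0.196), and its groups did not overlap. ALDOC, an aldolase of brain, spanned 263 to 630.2 after coculture, against 195 to 749 alone, with a common change of 0.10 ± 0.38 (adjusted p = 0.891).

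ENO2, the neuronal enolase, read 1575 and 1523 after coculture against 1434 and 1345 alone in MM.1S, 1839 and 1768 against 1306 and 1269 in MM.1R, and 265 and 262 against 49.5 and 22.7 in INA-6. The change was 0.16 in MM.1S, 0.48 in MM.1R and 2.79 in INA-6, with a common change of 1.14 ± 0.56 (adjusted p = 0.275). LDHA, which makes lactate from pyruvate, read 6289 and 6002 after coculture against 1527 and 1527 alone in MM.1S, 6736 and 6496 against 3282 and 3405 in MM.1R, and 5040.3 and 5673 against 4789 and 5124 in INA-6. Its change was 2.0 in MM.1S, 0.98 in MM.1R and 0.11 in INA-6, and 1.03 ± 0.46 in common (adjusted p = 0.240). LDHA after coculture in MM.1S and MM.1R lay well above the same lines alone, while the INA-6 groups overlapped.

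GAPDH, the dehydrogenase of the pathway, is also a labelling control, and its probe sets show how a change depends on the part of the transcript that is read. The probe set used for the gene read 7637 and 7106 after coculture against 2911 and 2948 alone in MM.1S, 7733 and 6987 against 6532 and 6170.3 in MM.1R, and 5836 and 5927 against 3809 and 4543 in INA-6. The change was 1.33 in MM.1S, 0.21 in MM.1R and 0.50 in INA-6, and the common change of 0.68 ± 0.41 did not pass (adjusted p = 0.347). The control at the 3′ end changed by 1.0 in MM.1S, 0.18 in MM.1R and 0.69 in INA-6. For the middle of the transcript the changes were 2.51 in MM.1S, 0.75 in MM.1R and 0.41 in INA-6. The control at the 5′ end changed by 2.66 in MM.1S, 2.11 in MM.1R and -0.10 in INA-6. The 3′ over 5′ ratio, which is high when RNA is shortened or labelling is incomplete, was 1.91 and 1.86 after coculture against 6.22 and 5.76 alone in MM.1S, 1.72 and 1.70 after coculture against 6.44 and 6.59 alone in MM.1R, and 4.90 and 5.01 after coculture against 2.53 and 3.22 alone in INA-6. It was thus lower after coculture in the MM.1 lines and higher in INA-6. The same ratio for ACTB averaged, over the 2 arrays of a group, 5.10 for cocultured and 22.4 for lone MM.1S cells, 5.21 and 31.4 for MM.1R, and 32.0 and 5.51 for INA-6. The other members have no such controls, so how far transcript end moved their values was not tested.

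**Figure D2:**
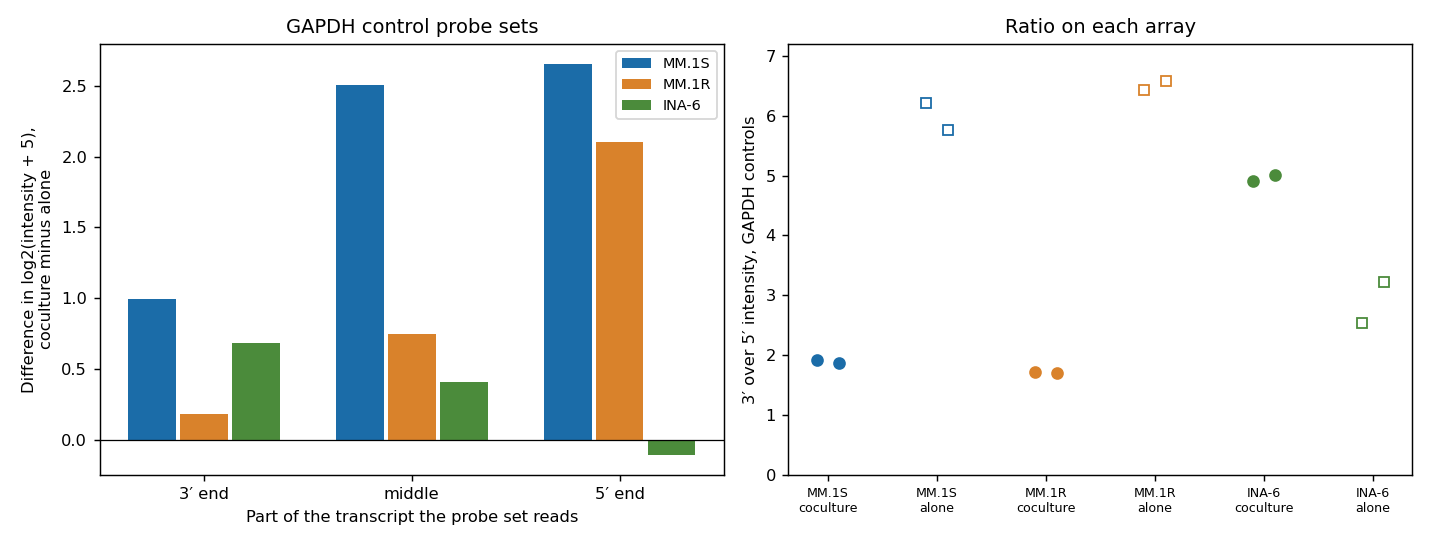
Left, change of the 3 GAPDH control probe sets in each line, as the difference in log2(intensity + 5), coculture minus alone. Right, ratio of 3′ to 5′ intensity on each array, after coculture (filled circles) and alone (open squares). In MM.1R the change was 0.18 at the 3′ end and 2.11 at the 5′ end.

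Of 3 regulators of the pathway 1 rose, PFKFB4. PFKFB3 and PFKFB4 set the level of the sugar phosphate that activates phosphofructokinase. PFKFB4 read 421 and 447 after coculture against 19.6 and 62.1 alone in MM.1S, 483 and 435 against 16.1 and 10.7 in MM.1R, and 818 and 789 against 49.8 and 24.5 in INA-6. PFKFB4 rose by 4.14 ± 0.41 (adjusted p = 0.00339), and the groups lay far apart. PFKFB3 spanned 319 to 1155 after coculture, against 101 to 338 alone, with 1.15 in MM.1S, 1.86 in MM.1R and 2.0 in INA-6. Its common change of 1.67 ± 0.39 did not pass (adjusted p = 0.0655). PDK1, the kinase that keeps pyruvate out of the mitochondrion, read 2108 and 2094 after coculture against 908 and 844 alone in MM.1S, 2053 and 2040.0 against 1277 and 1352 in MM.1R, and 1145 and 1156 against 175 and 47.1 in INA-6. Lone INA-6 cells had duplicates that lay far apart, and the common change of 1.82 ± 0.59 did not pass (adjusted p = 0.138).

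Of the glucose transporters, SLC2A3 rose and SLC2A1 did not pass. SLC2A3, a transporter of high affinity, read 472 and 472 after coculture against 68.7 and 71.2 alone in MM.1S, 676 and 678 against 33.1 and 37.7 in MM.1R, and 1075 and 993 against 524 and 129.9 in INA-6. The rise of 2.90 ± 0.49 (adjusted p = 0.0275) was seen in each line, but INA-6 alone reached 524 on 1 array, above MM.1S after coculture. Its other tested probe sets stood at 3.50 and 2.30. Without replicate 2 of INA-6 alone the adjusted p was 0.0615. SLC2A1, the transporter most cells use, spanned 133 to 228 after coculture, against 20.8 to 159 alone (0.80 ± 0.44, adjusted p = 0.311).

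Both mitophagy receptors rose. BNIP3 and BNIP3L sit in the outer mitochondrial membrane and bring damaged or surplus mitochondria to autophagy. BNIP3 read 486 and 465 after coculture against 163 and 16.3 alone in MM.1S, 1106 and 1046 against 18.5 and 40.5 in MM.1R, and 1303 and 1252 against 255 and 165 in INA-6. Its duplicates in MM.1S alone lay far apart, yet below every array after coculture, and BNIP3 rose by 3.55 ± 0.54 (adjusted p = 0.0188), with 4.62 on its other probe set. BNIP3L read 887 and 829 after coculture against 86.5 and 83.0 alone in MM.1S, 945 and 1050.5 against 119 and 105 in MM.1R, and 1122 and 1094 against 131 and 102 in INA-6. BNIP3L rose by 3.19 ± 0.37, with 3.26 in MM.1S, 3.10 in MM.1R and 3.20 in INA-6 (adjusted p = 0.00621). Its other probe set stood at 3.23.

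**Figure D3:**
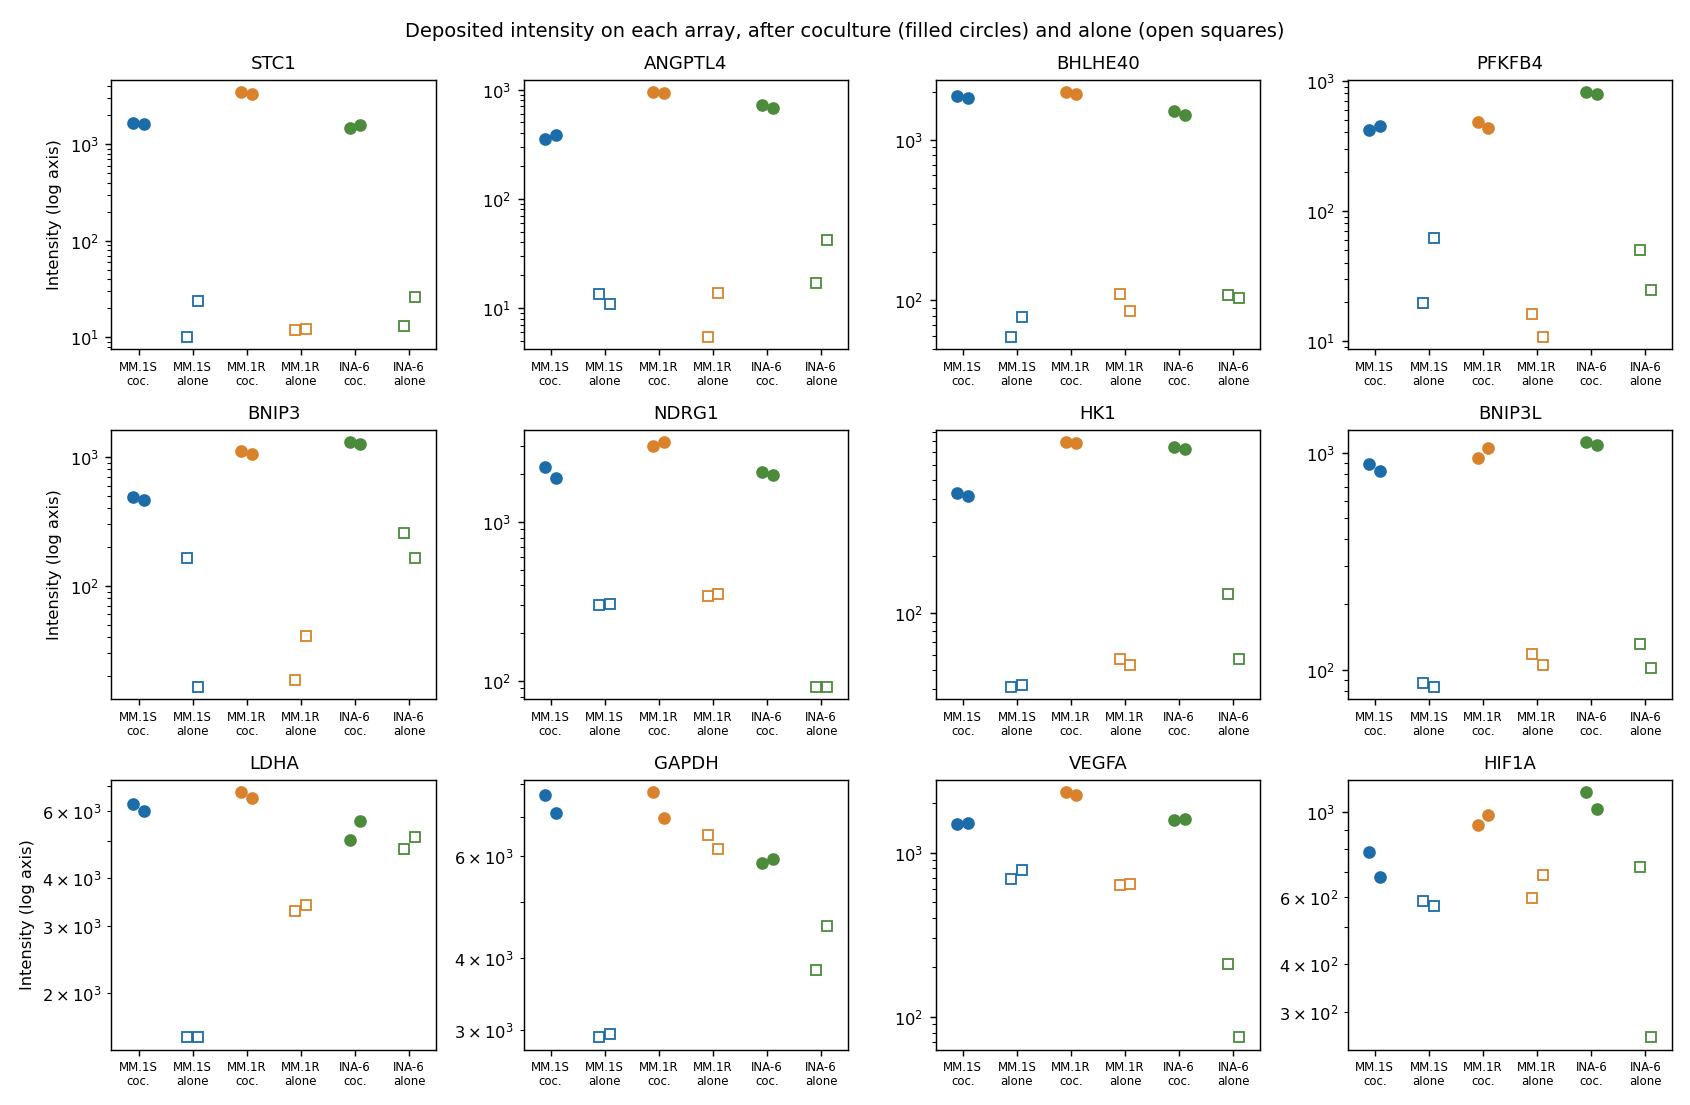
Deposited intensity of 12 genes on each array (log axis), after coculture (filled circles) and alone (open squares) in MM.1S, MM.1R and INA-6. STC1 lies between 1490.5 and 3482 after coculture and between 10.1 and 26.4 alone, while the LDHA and HIF1A groups overlap.

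Secreted products of the response held the highest changes, and 3 of 6 rose. STC1 and STC2 are stanniocalcins, secreted glycoproteins that act on calcium and phosphate handling, and ANGPTL4 inhibits lipoprotein lipase. STC1 read 1662 and 1641 after coculture against 10.1 and 23.7 alone in MM.1S, 3482 and 3287 against 11.8 and 12.3 in MM.1R, and 1490.5 and 1577 against 13.1 and 26.4 in INA-6. ANGPTL4 read 349 and 385 after coculture against 13.4 and 10.8 alone in MM.1S, 950.4 and 922 against 5.42 and 13.6 in MM.1R, and 721 and 683 against 17.0 and 41.5 in INA-6. Both were below the array median in cells alone, on 4 and 5 of the 6 arrays, and far above it on every array after coculture. STC1 rose by 6.65 ± 0.45 (adjusted p = 0.00207) and ANGPTL4 by 5.0 ± 0.46 (adjusted p = 0.00277). Their sizes depend on the pseudocount, through the low values in cells alone, and on the probe set. The other tested probe sets stood at 3.78 and 6.38 for STC1 and at 3.16 for ANGPTL4. Over the alternatives the changes ran from 5.60 to 6.98 and from 4.08 to 5.36, lowest with the mean of a gene's probe sets. STC2 read 400.2 and 414 after coculture against 10.8 and 8.74 alone in MM.1S, 905 and 938 against 7.90 and 4.18 in MM.1R, and 943 and 859.7 against 353 and 109 in INA-6. STC2 was below the array medians alone in the MM.1 lines but not in INA-6, and rose by 4.46 ± 0.74 (adjusted p = 0.0258). Its size too depends on the pseudocount, at 4.84 with 1 and 3.85 with 16. Without replicate 2 of INA-6 alone its adjusted p was 0.0505.

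COL6A2, a collagen gene of stromal cells, read 1484 and 1517 after coculture against 5.80 and 6.34 alone in MM.1S, 3274 and 2979.5 against 5.45 and 11.2 in MM.1R, and 1254 and 1196 against 8.30 and 9.83 in INA-6. COL6A2 does not stand for the 22 stromal markers. It is 1 of the 3 that were below the array median on all 6 arrays alone, while 7 of the 22 were above it on all 12. TAGLN was below the median on 1 array alone and 2 after coculture, and MYL9 on 2 alone and 4 after coculture. The part of HS-5 RNA in the secreted group was not tested.

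VEGFA, ADM and MIF did not pass. VEGFA, the main growth factor of blood vessels, read 1482 and 1518 after coculture against 692 and 786 alone in MM.1S, 2327 and 2229 against 632 and 639 in MM.1R, and 1574 and 1609.6 against 210.4 and 75 in INA-6. Every array after coculture was higher, with 1.02 in MM.1S, 1.83 in MM.1R and 3.60 in INA-6 and a common change of 2.15 ± 0.54 (adjusted p = 0.0796). Its 4 tested probe sets ran from -0.08 to 2.15. The lowest of them read 144 and 109 after coculture against 93.6 and 75.2 alone in MM.1S, 175 and 194 against 50.7 and 54.7 in MM.1R, and 117 and 121 against 747 and 665 in INA-6. It was thus lower after coculture in INA-6, where the probe set used for the gene was higher. MIF, a cytokine that hypoxia also induces, read 5082 and 5175 after coculture against 838 and 864 alone in MM.1S, 5435 and 5162 against 2701 and 2356 in MM.1R, and 3519 and 3172 against 2513 and 3046 in INA-6. The change of MIF was 2.58 in MM.1S, 1.07 in MM.1R and 0.27 in INA-6 (1.31 ± 0.51 in common, adjusted p = 0.189). ADM, a vasodilator peptide, spanned 2913 to 3981 after coculture, against 1636 to 2023 alone, with no overlap and a common change of 0.80 ± 0.37 (adjusted p = 0.25).

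All 6 of 6 other HIF targets rose. BHLHE40 is a transcriptional repressor and NDRG1 a cytoplasmic protein induced by hypoxia and stress. BHLHE40 read 1884 and 1826 after coculture against 58.9 and 78.9 alone in MM.1S, 1986 and 1937 against 109 and 85.9 in MM.1R, and 1502 and 1421 against 108 and 103 in INA-6. NDRG1 read 2221 and 1886 after coculture against 300.0 and 307 alone in MM.1S, 3027 and 3189.6 against 344 and 353 in MM.1R, and 2059.5 and 1974 against 91.6 and 92.2 in INA-6. Each array after coculture was far above each array alone, and BHLHE40 rose by 4.22 ± 0.39 (adjusted p = 0.00277) and NDRG1 by 3.42 ± 0.45 (adjusted p = 0.0109). P4HA1 and P4HA2 are the catalytic subunits of the hydroxylases that stabilise collagen. P4HA1 read 1479 and 1411 after coculture against 248 and 282 alone in MM.1S, 1786 and 1878 against 305 and 338 in MM.1R, and 2656 and 2722 against 858 and 442 in INA-6. P4HA2 read 787 and 898 after coculture against 202 and 169 alone in MM.1S, 1623 and 1562 against 219 and 234 in MM.1R, and 514 and 578 against 63.8 and 46.6 in INA-6. The groups of both did not overlap, and they rose by 2.35 ± 0.37 (adjusted p = 0.0228) and 2.72 ± 0.40 (adjusted p = 0.0176).

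KDM3A, a histone demethylase, read 1171 and 1107 after coculture against 300.3 and 322 alone in MM.1S, 1178 and 1172 against 324 and 307 in MM.1R, and 742 and 988 against 78.2 and 27.2 in INA-6. ANKRD37, an ankyrin-repeat protein induced through HIF, read 2778 and 2622 after coculture against 573 and 566 alone in MM.1S, 3084 and 3179.7 against 829 and 868 in MM.1R, and 771 and 773 against 36.5 and 56.4 in INA-6. In both the rise was largest in INA-6, where the levels alone were lowest. KDM3A rose by 2.60 ± 0.53 (adjusted p = 0.0471) and ANKRD37 by 2.69 ± 0.49 (adjusted p = 0.0360), and both lost the call without replicate 1 of INA-6 alone (adjusted p = 0.0858 and 0.0601). For ANKRD37 the ranges of the groups overlapped, because INA-6 after coculture read lower than MM.1R alone.

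Probe sets of 1 gene often differed in the size of their change. Over all tested probe sets, 18 of the 73 that belong to members rose and 0 fell, where 1.11% of all 35664 rose and 0.0168% fell. In 20 members with several tested probe sets, 2 had common changes of opposite sign, HK2 and VEGFA. Within some line 8 did: EGLN1, ENO1, PGK1 and VEGFA in INA-6, HK2, PDK1 and PKM in both MM.1 lines, and PFKP in MM.1R. In INA-6 the EGLN1 probe sets ran from -1.16 to 2.44. STC1 had the widest range, 3.78 to 6.65. PGK1, with 6, ran from 0.38 to 2.12, and the highest of these was 3.67 in MM.1S, 2.96 in MM.1R and -0.26 in INA-6. Which part of the transcript that probe set reads is not known here, and why the probe sets differ was not tested.

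**Figure D4:**
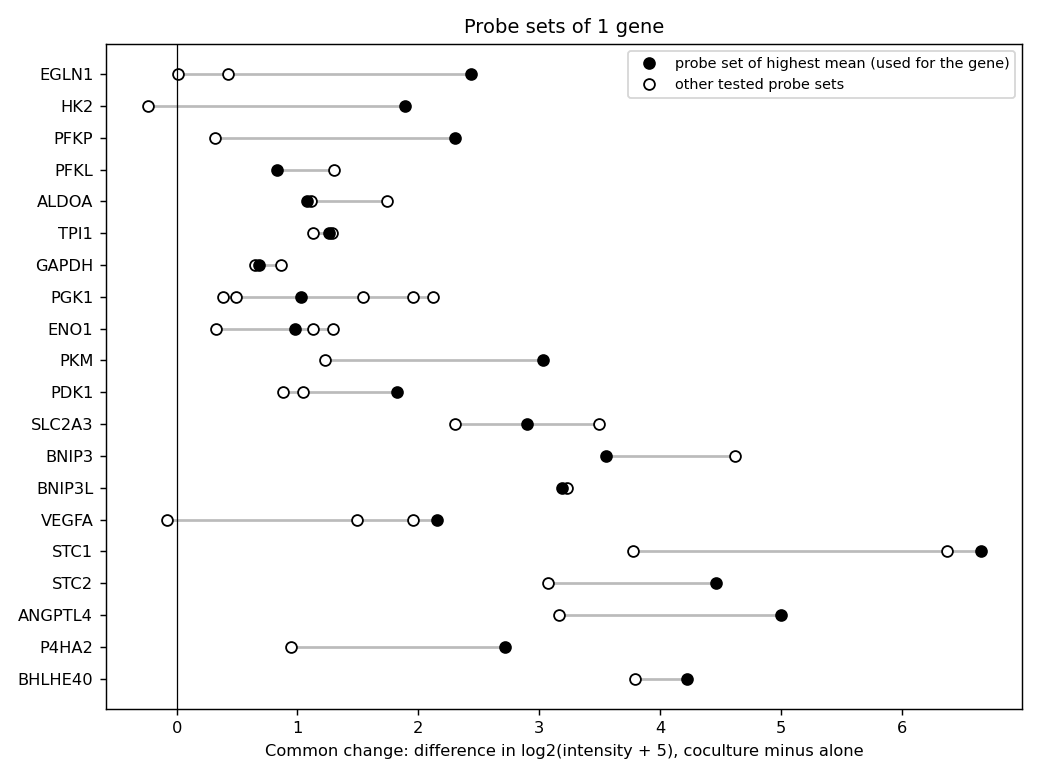
Common change of each tested probe set for the 20 members that have several, as the difference in log2(intensity + 5), coculture minus alone. Filled points are the probe set of highest mean, used for the gene. STC1 runs from 3.78 to 6.65, and HK2 and VEGFA each have a point below 0.

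Other genes of the same pathways were counted in the same test. Of 22 further hypoxia-induced genes 10 rose and 0 fell, with a median change of 1.90. The top rises were CA12, a carbonic anhydrase of the cell surface, at 5.29 ± 0.41 (adjusted p = 0.00223), and LOX, which crosslinks collagen, at 4.59 ± 0.43 (adjusted p = 0.00277). Of 12 further components of HIF control 1 rose, CITED2, which competes with HIF for a coactivator (2.38 ± 0.42, adjusted p = 0.0336), and 0 fell. Other genes of glycolysis and lactate handling rose in 0 of 16 cases and fell in 0, with a median of 0.38. In pyruvate oxidation and the citrate cycle 1 of 23 rose and 0 fell (median 0.76). The one that rose was PDP1, the phosphatase that opposes PDK1 (2.44 ± 0.39, adjusted p = 0.0235). The pentose phosphate pathway had 0 of 6 higher and 0 lower (median 0.87). Other mitophagy genes had 1 of 12 higher, the autophagy protein GABARAPL1 (2.16 ± 0.38, adjusted p = 0.0327), and 0 lower.

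Each line was also tested by itself. In a limma fit of the 12 arrays with a mean per group, 30 of 38 members rose and 0 fell in MM.1S, where all genes gave 23.9% higher and 8.33% lower. In MM.1R 29 rose and 0 fell, with 13.3% higher and 2.76% lower over all genes. In INA-6 32 rose and 0 fell, with 39.1% higher and 13.1% lower. The members' median change was 1.82, 1.77 and 2.06 in MM.1S, MM.1R and INA-6, beside 0.11, 0.09 and 0.47 for all genes. The p-values of this fit, here and in what follows, measure only the spread between duplicate arrays.

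Several members changed by a different amount in INA-6 than in the MM.1 lines. The change in INA-6 minus the mean change in the MM.1 lines passed as higher for 9 members and as lower for 8, where all genes gave 24.9% higher and 14.3% lower. For the higher ones the share of members is near that background. PDK1, ENO2, KDM3A and VEGFA had the highest differences, at 2.63 ± 0.57 (adjusted p = 0.00823), 2.47 ± 0.34 (0.00107), 2.19 ± 0.47 (0.00779) and 2.18 ± 0.47 (0.00801). ANKRD37 (1.89 ± 0.24), PFKL (1.65 ± 0.31), NDRG1 (1.45 ± 0.18), PKM (0.96 ± 0.20) and P4HA2 (0.73 ± 0.23) followed. All of these except PKM read at least 1.5 log2 units lower in INA-6 alone than in the MM.1 lines alone, and the 2 comparisons share those arrays. INA-6 alone minus the mean of the MM.1 lines alone was -3.48 ± 0.40 for PDK1 and -5.11 ± 0.24 for ENO2. It was -3.79 ± 0.17 for ANKRD37, -2.62 ± 0.33 for KDM3A and -2.39 ± 0.33 for VEGFA. PFKL, P4HA2 and NDRG1 stood at -2.38 ± 0.22, -1.81 ± 0.17 and -1.77 ± 0.13. After coculture the gap was narrower, as for PDK1 with 1145 and 1156 in INA-6 against 2053 and 2040.0 in MM.1R and 2108 and 2094 in MM.1S.

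Smaller changes in INA-6 were led by STC2 (-3.45 ± 0.56, adjusted p = 0.00213), MIF (-1.55 ± 0.20, 0.000730), LDHA (-1.38 ± 0.17, 0.000678) and PFKP (-1.27 ± 0.28, 0.00933). PGAM1 (-0.87 ± 0.18), BHLHE40 (-0.74 ± 0.23), PGK1 (-0.74 ± 0.17) and EPAS1 (-0.70 ± 0.18) also passed. STC2, PFKP, LDHA and MIF read higher in INA-6 alone than in the MM.1 lines alone, by 4.0 ± 0.39, 4.14 ± 0.20, 1.13 ± 0.12 and 0.91 ± 0.14. Of all members 13 were higher and 11 lower in INA-6 alone, with 21.4% higher and 34.1% lower over all genes. The VEGFA difference turned to -1.08 with the mean of its probe sets. The other tested probe sets of PDK1 did not go the same way. On 1 of them the change was 0.28 in INA-6, 1.41 in MM.1S and 1.45 in MM.1R. It read 31.7 and 43.1 in INA-6 alone, against 29.6 to 48.5 in the MM.1 lines alone. The last changed by 3.28 in INA-6, -0.24 in MM.1S and -0.38 in MM.1R. In this comparison too the GAPDH 3′ over 5′ ratio moved in opposite directions in INA-6 and the MM.1 lines. The INA-6 change was also lower for 7 of 11 myeloma and 8 of 22 stromal markers, and higher for 0 of either list. The part of these moves was not tested.

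**Figure D5:**
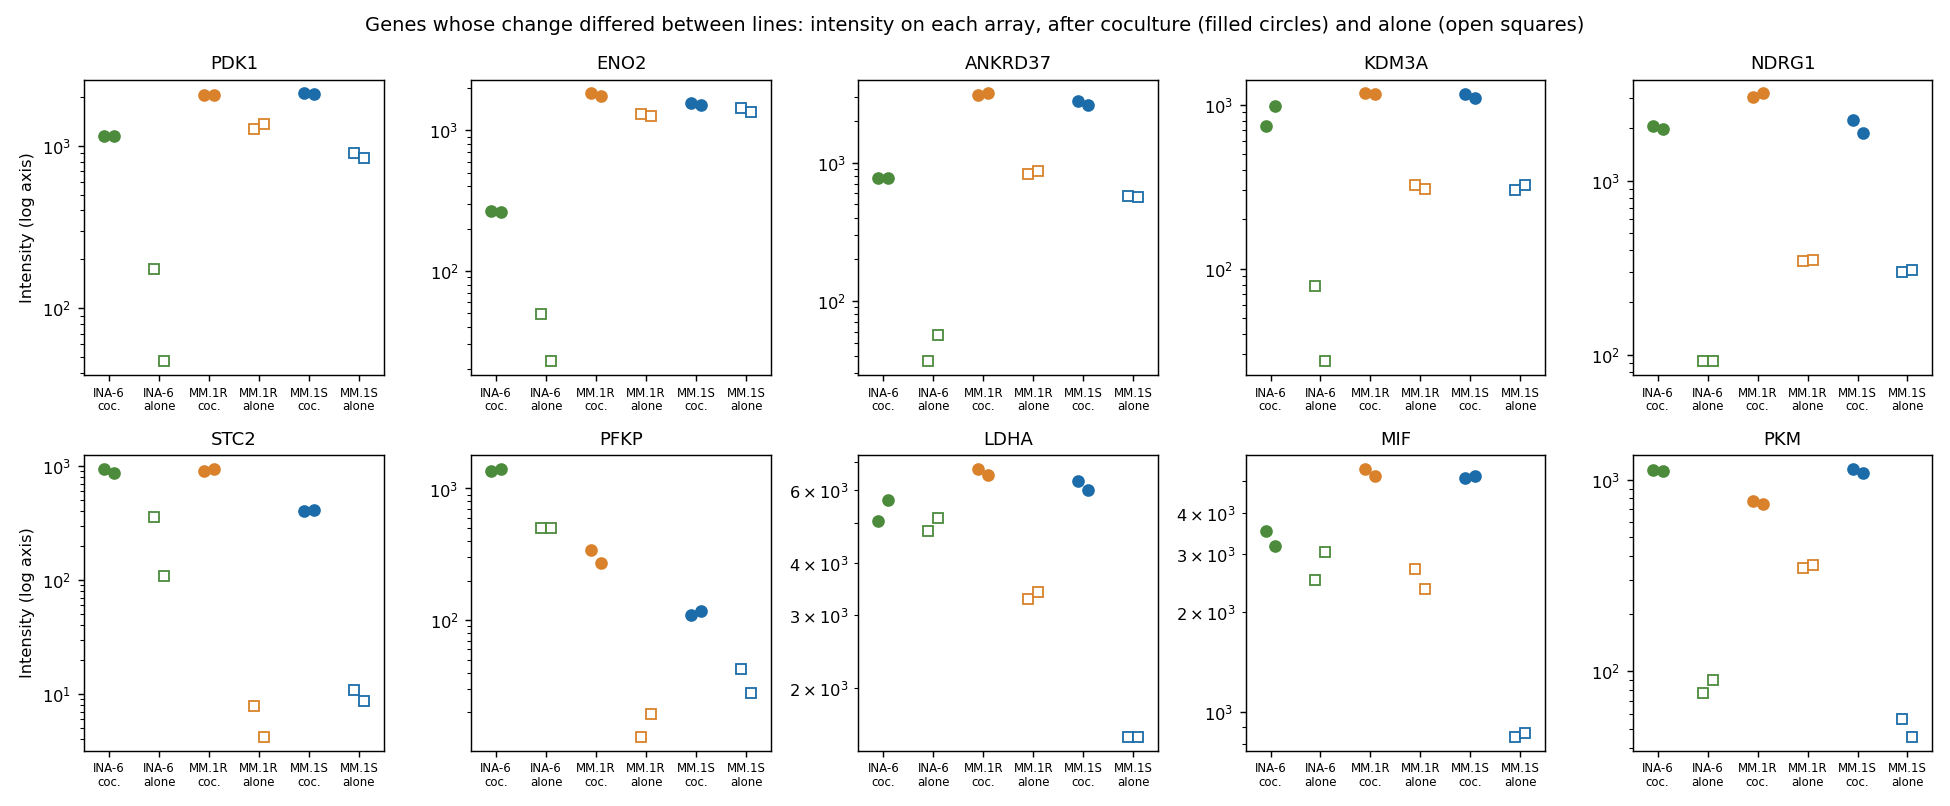
Intensity on each array (log axis) of 10 genes whose change differed between lines, after coculture (filled circles) and alone (open squares), with INA-6 left of MM.1R and MM.1S. PDK1 reads 47.1 and 175 in INA-6 alone and 844 to 1352 in the MM.1 lines alone.

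MM.1R and MM.1S, related lines that differ in their response to dexamethasone, differed in the level of glycolytic enzymes without stroma. In MM.1R alone 11 members were higher and 1 lower than in MM.1S alone, where all genes gave 7.93% higher and 1.67% lower. Of the glycolytic enzymes 9 of 15 were higher: PKM (2.69 ± 0.16, adjusted p = 0.00183), ALDOA (1.19 ± 0.14), LDHA (1.13 ± 0.14), GAPDH (1.11 ± 0.15), PGAM1 (1.0 ± 0.15), TPI1 (0.98 ± 0.22), GPI (0.98 ± 0.19), ENO1 (0.86 ± 0.14) and PGK1 (0.67 ± 0.14). MIF (1.56 ± 0.16) and EPAS1 (0.71 ± 0.14) were also higher, and PFKP was lower (-0.92 ± 0.23, 0.0468). The PFKP call was lost under 13 of 21 alternatives, and its direction turned with the mean of its probe sets (0.0137). The other tested probe set of PKM read 238 and 259.6 in MM.1R alone against 301 and 246 in MM.1S alone. With coculture that probe set changed by -0.10 in MM.1R and -0.19 in MM.1S. Of the 12 calls 3 passed under every alternative, and leaving out each array in turn gave 3 to 17 members higher, lowest without replicate 1 of MM.1R alone. 5 of 11 myeloma markers were also higher in MM.1R alone and 0 lower, with a summed intensity of 23372 in MM.1R against 15743 in MM.1S, and BioB averaged 694 against 2115. Their part in the difference was not tested. The change with coculture was smaller in MM.1R than in MM.1S for 5 members and larger for 1, with 0.565% higher and 1.89% lower over all genes. These were PKM (-3.23 ± 0.23, adjusted p = 0.00948), MIF (-1.52 ± 0.23, 0.0309), ALDOA (-1.14 ± 0.20, 0.0365), GAPDH (-1.12 ± 0.22, 0.0444) and LDHA (-1.02 ± 0.20, 0.0453), while PFKP was larger (2.30 ± 0.33, 0.0302). The same arrays of cells alone enter both comparisons. After coculture LDHA read 6736 and 6496 in MM.1R against 6289 and 6002 in MM.1S. PKM was then lower in MM.1R (773 and 746) than in MM.1S (1141 and 1084), and PFKP higher (338 and 271 in MM.1R against 109 and 117 in MM.1S). Under the alternatives none of these 6 differences of change passed every time.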

How the data were processed

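Linear intensity values, 1 per probe set and array, were used as the authors deposited them, without raw scans. MAS5 is named in the submitters' processing notes, whereas the series' design text speaks of dChip and averaged duplicate chips; the table keeps the 12 arrays separate. Further settings, not given in the sources used here, are unknown. Between 3.02% and 3.63% of the values of an array stand at exactly 1. Precision is limited by the number of arrays.

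Probe sets were named through the array's annotation, which gives 1 symbol to 41097 of them, several to 1801 and none to 11776, and only the first kind stood for genes. 1 probe set with a missing value and 62 controls stayed out of tests. Intensities were taken to log2 after adding 5. A probe set was tested if above its array's median on at least 2 arrays, and of a gene's tested probe sets the one with the highest mean was used. Limma 3.58.1 in R 4.3.3 fitted the change common to the lines on duplicate means, with the line as block (2 residual degrees of freedom), and separate means for the 6 groups on all 12 arrays; both were tested on simulated data. The members and lists were chosen with earlier results of these data known. All members could be named; of other lists at most the 2 top rises and falls that passed. Alternatives changed the pseudocount, scaling, filter, probe set choice, averaging, lines and replicates. Sequences are RefSeq's, GRCh38.p14.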

Additional observations from a re-analysis of the deposited data

Results flagged for a closer look

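The change after coculture differed between lines, by the test of the difference itself in limma's fit of the 12 arrays, for 17 members between INA-6 and the MM.1 lines and for 6 between MM.1R and MM.1S. Over all genes 24.9% were higher and 14.3% lower for INA-6 against the MM.1 lines. For MM.1R against MM.1S 0.565% were higher and 1.89% lower. The spread behind these tests is that between duplicate arrays. As the change in INA-6 minus the mean change in the MM.1 lines (log2), the larger changes in INA-6 were those of PDK1 (2.63), ENO2 (2.47), KDM3A (2.19), VEGFA (2.18), ANKRD37 (1.89), PFKL (1.65), NDRG1 (1.45), PKM (0.96) and P4HA2 (0.73). The smaller ones were those of STC2 (-3.45), MIF (-1.55), LDHA (-1.38), PFKP (-1.27), PGAM1 (-0.87), BHLHE40 (-0.74), PGK1 (-0.74) and EPAS1 (-0.70). Of these 17, the 9 that passed under every alternative run were PFKL, ENO2, LDHA, PDK1, STC2, MIF, NDRG1, ANKRD37 and KDM3A. Their adjusted p lay between 0.000631 and 0.00823. A tested probe set of PDK1 other than the one used changed less in INA-6 (0.28) than in MM.1S (1.41) and MM.1R (1.45).

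As the change in MM.1R minus the change in MM.1S (log2), PFKP was higher (2.30), and PKM (-3.23), MIF (-1.52), ALDOA (-1.14), GAPDH (-1.12) and LDHA (-1.02) were lower. Each of the 6 lost the call under at least 1 alternative. The other tested probe set of PKM changed by -0.10 in MM.1R and -0.19 in MM.1S. The adjusted p of PKM, the largest difference, ran from 0.00102 to 0.163 over the alternatives.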

How the results depend on the processing

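The common count of 18 members higher was 9 after quantile normalization, 30 without INA-6, 35 with the 12 arrays not averaged and 32 with the replicate block. For probe sets the count of 18 was 10, 51, 58 and 54 in that order, and 9 with no filter. The members' median of 1.98 was 1.67 after quantile normalization and 1.35 with the mean of a gene's probe sets, while that of all genes, 0.27, was 0.02 after quantile normalization and 0.27 after centring. In INA-6 the 32 higher were 21 when its own arrays were fitted alone, where the share of all genes moved from 39.1% to 16.2%. After quantile normalization 1 member was lower in INA-6, beside 19.3% of all genes. All 18 common calls kept their direction under all 22 alternatives, and 9 kept their call.

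Differences between MM.1R and MM.1S were the least stable. Members whose change was higher in MM.1R were 1 as reported, 0 after centring, 0 with no filter, 0 with the replicate block and 8 when the MM.1 arrays were fitted alone. Those lower were 5 as reported, 1, 1, 0 and 11 in that order, 3 with the mean of probe sets and 3 with a pseudocount of 1. In cells alone, members lower in MM.1R were 1 as reported, 4 with the MM.1 arrays alone, and 0 after centring, with no filter, a pseudocount of 16, the mean of probe sets or the replicate block.

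Leaving out each array in turn gave 13 to 19 members and 11 to 21 probe sets higher in common, and a median of 1.87 to 2.14. Per line it gave 28 to 32 higher in MM.1S, 23 to 35 in MM.1R and 26 to 34 in INA-6, with 0 to 1 lower in INA-6. For the change in INA-6 against the MM.1 lines it gave 8 to 14 higher and 5 to 16 lower, for MM.1R against MM.1S 0 to 9 and 0 to 12, and for MM.1R alone against MM.1S alone 3 to 17 and 0 to 4. The common calls of EGLN1, GPI, HK2, KDM3A, PKM, SLC2A3, STC2 and ANKRD37 were lost without an array of INA-6 alone. Each of them was also lost after quantile normalization, and most under further alternatives.

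Among values called as reported or under the alternative, directions turned in 12 cases, each in a difference between lines. Values called in neither turned in 60 more cases, 6 of them coculture effects, such as ALDOC in common (lowest -0.19). For the change in INA-6 against the MM.1 lines, quantile normalization gave ADM 0.45, ALDOA 0.52 and GAPDH 0.51, leaving out each array in turn gave EGLN1 -1.18 to 1.18 and SLC2A1 -0.51 to 1.99, both lowest without replicate 2 of INA-6 alone, and the mean of probe sets gave VEGFA -1.08. For INA-6 alone against the MM.1 lines alone, ALDOA was -0.50 after quantile normalization, EGLN1 -1.32 to 1.04 on leaving out each array, highest without replicate 2 of INA-6 alone, and BNIP3L -0.62, EGLN1 1.11 and VEGFA 0.51 with the mean of probe sets. PFKP in MM.1R alone against MM.1S alone was 0.0137 with that mean. The cause was not tested. Same-numbered arrays did not pair alike in all groups. Over 15 pairs of groups the deviations of replicate 1 from replicate 2 correlated across genes at -0.53 to 0.58, and 6 were over 0.1. Between coculture and alone of the same line the correlation was 0.41 in MM.1S, 0.58 in MM.1R and 0.08 in INA-6. Between MM.1S and MM.1R it was -0.53 to -0.35. INA-6 stood at 0.18 to 0.23 with MM.1S and at -0.23 to -0.11 with MM.1R. The numbers were not taken as pairs in the reported fits, and pairing within a line was not tested. Genes near the array median alone, such as STC1, ANGPTL4, STC2 and PFKFB4, have changes whose size rests on the pseudocount.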
